A study of Mus musculus with 21 samples.

Results

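The tumors described here are the 12 mouse mammary tumors of the RhoC cohort, divided by their level of *Tnc*, the gene for the extracellular matrix protein tenascin-C. The classes were chosen by *Tnc* itself: 7 tumors above 1200 CPM (read counts scaled to library size) formed the high class (R-6, R-10, R-12, R-13, R-14, R-15 and R-16) and 5 tumors below 800 CPM formed the low class (R-1, R-2, R-7, R-18 and R-21). Together they are 12 of the 21 tumors of the series, and the other 9 are control tumors. Each tumor was profiled by bulk RNA-seq of ribosome-depleted total RNA.

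All RhoC tumors came from virgin female mice labelled R26(RhoC/+), FloxNeoNeuNT and MMTV-CreNLST. In these animals Cre recombinase, driven by the mammary MMTV promoter, removes a stop cassette ahead of a *RhoC* cDNA at the Rosa26 locus and another ahead of an activated *Neu* (NeuNT) cDNA placed at the endogenous *Erbb2* locus. Per the study, this Cre line seems to act in fewer cells of the mammary epithelium, or less strongly, than other MMTV-Cre lines. The 9 controls carried FloxNeoNeuNT and MMTV-CreNLST without the RhoC allele, and 7 of them also carried 1 floxed copy of *Gata4*; they came from 9 mice. The 7 high tumors came from 4 mice and the 5 low tumors from 5 mice. Mouse P497 gave 4 high tumors (R-13, R-14, R-15 and R-16), and mouse N9255 gave 1 tumor of each class (R-6 high, R-7 low). By their labels R-15 and R-16 came from the same gland. Tumors of 1 mouse are not independent, so calls, and some fold changes, are also given for counts summed over each mouse within a class. The label of R-18 names no mouse, and it was taken as its own. The mouse on the label of R-21 is listed for another tumor in the study's own table, and by either source R-21 is the only tumor of its mouse used here.

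Tenascin-C is a large hexameric glycoprotein of the matrix that is scarce in most resting adult tissue and is laid down in embryonic mesenchyme, healing wounds and tumor stroma. It binds fibronectin, syndecans and several integrins, and weakens cell adhesion to fibronectin. Fibroblasts are its usual source, though carcinoma cells and myoepithelial cells can make it too, and its gene responds to TGF-beta, Notch, mechanical load and serum.

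*Tnc* lies on chromosome 4 from 63959785 to 64047015 (minus strand, GRCm38). The low tumors were at 120 CPM (R-21), 196 (R-1), 373 (R-18), 437 (R-2) and 675 (R-7), and the high tumors ran from 1513 (R-16) over a median of 2105 to 4824 CPM (R-12). No RhoC tumor lay between 675 and 1513 CPM, so the classes were the same with TMM factors from the RhoC tumors alone or from all 21. The controls ran from 46.6 to 1114 CPM with a median of 286, so all 9 lay below the lowest high tumor. Since *Tnc* chose the classes, these levels are a description and no test was made on them.

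**Figure D1:**
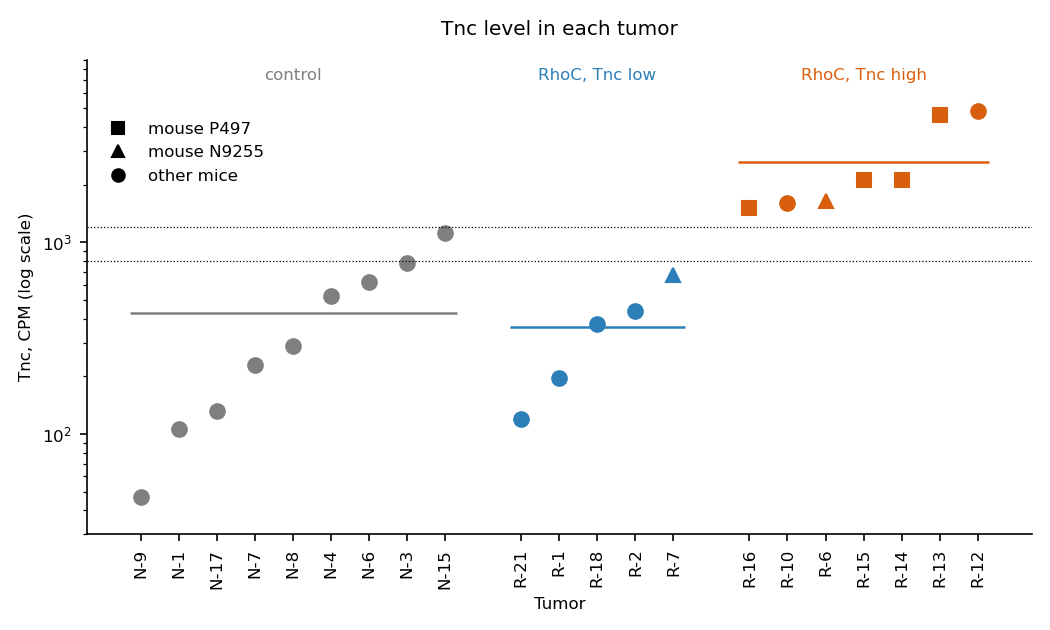
*Tnc* level in CPM (log axis) in each tumor, ordered within controls (gray), low (blue) and high (orange) RhoC tumors; horizontal bars are group means and dotted lines the limits of 800 and 1200 CPM. Squares mark the 4 tumors of mouse P497 and triangles the 2 tumors of mouse N9255; no RhoC tumor lies between 675 and 1513 CPM.

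Per transcript length, *Tnc* was among the most abundant messages of the high tumors. In the deposited FPKM values (fragments scaled to transcript length and library size) it ranged from 190 to 624 in the high class and from 15.2 to 84 in the low class. It ranked between 38 and 216 of 23203 genes in the high tumors, and between 528 and 3807 in the low tumors. On the same FPKM scale *Fn1* (fibronectin) ranged from 155 to 1140 in high tumors, and *Postn* (periostin, another matricellular protein) from 137 to 261. A gene of unknown product on the opposite strand, 8030451A03Rik, overlaps *Tnc* but held at most 140 reads in any tumor. The other 3 tenascin genes were read less: the highest FPKM of any high tumor was 15.2 for *Tnxb*, 5.8 for *Tnn* and 0.229 for *Tnr*, and edgeR called 0 of these 3 genes between the classes, with 2 at an unadjusted p under 0.05 and 2 called by DESeq2. Over all genes edgeR called 2.0% higher and 1.19% lower. In either direction 4744 of 19358 (24.5%) had an unadjusted p under 0.05 in edgeR, and DESeq2 called 2878 of 19111 (15.1%). A count of that kind for a list is read against these shares.

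The start of *Tnc* is printed below with those of 3 genes described later, which were called higher in the high tumors. Each sequence is the 250 bases before a start site annotated by RefSeq (GRCm38.p6), written 5′ to 3′ on the gene's strand. Capitals mark the AP-1 motif TGANTCA, which is bound by Fos and Jun proteins, and the TATA motif TATAAA, wherever they occurred on either strand; the motifs do not overlap.
Tnc, chr4:64047016-64047265, minus strand: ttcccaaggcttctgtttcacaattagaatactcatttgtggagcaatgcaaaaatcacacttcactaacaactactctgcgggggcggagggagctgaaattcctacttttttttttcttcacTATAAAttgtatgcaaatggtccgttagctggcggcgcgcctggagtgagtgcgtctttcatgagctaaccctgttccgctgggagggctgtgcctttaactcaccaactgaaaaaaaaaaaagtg
Emp1, chr6:135362681-135362930, plus strand: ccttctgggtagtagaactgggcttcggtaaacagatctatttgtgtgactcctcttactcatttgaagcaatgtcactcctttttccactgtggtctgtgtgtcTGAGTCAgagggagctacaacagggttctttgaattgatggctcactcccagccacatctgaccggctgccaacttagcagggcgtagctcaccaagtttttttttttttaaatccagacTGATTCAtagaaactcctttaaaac
Serpinb2, chr1:107511173-107511422, plus strand: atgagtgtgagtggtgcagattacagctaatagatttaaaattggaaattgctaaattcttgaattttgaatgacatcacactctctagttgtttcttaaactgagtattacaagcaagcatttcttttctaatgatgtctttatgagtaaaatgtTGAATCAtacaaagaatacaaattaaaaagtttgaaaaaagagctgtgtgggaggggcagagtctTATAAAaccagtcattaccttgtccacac
Plaur, chr7:24462233-24462482, plus strand: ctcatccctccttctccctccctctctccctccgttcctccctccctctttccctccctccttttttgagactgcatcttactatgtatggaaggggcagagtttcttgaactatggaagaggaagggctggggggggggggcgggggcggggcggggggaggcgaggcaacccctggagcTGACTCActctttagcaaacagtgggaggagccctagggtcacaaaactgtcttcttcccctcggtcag

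The *Emp1* window held the AP-1 motif at 145 and 25 bases before the start, and those of *Serpinb2* and *Plaur* held it at 94 and 69 bases. The *Tnc* window held no AP-1 motif, and neither did a window at its second annotated start. The window at the second annotated start of *Emp1* held none either, and that of *Serpinb2* held the motif at 181 bases. *Emp1*, *Serpinb2* and *Plaur*, the urokinase receptor gene, were picked for print after it was seen that their windows held the motif. Over all tested genes, 12393 of 19349 gene names had a window. The AP-1 motif was in 6.17% of those, in 10.7% of the 291 genes called higher in the high tumors that had a window, and in 9.14% of the 175 called lower. Among the same sets the TEAD motif GGAATG was in 13%, 14.1% and 10.9%, and the CArG box, the site of SRF, in 1.41%, 1.37% and 1.71%. These shares are descriptions of letters and were not tested.

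The 12 RhoC tumors were compared between classes for all other genes. Of 19358 genes tested with edgeR's quasi-likelihood test, 388 were higher in the high tumors (2.0% of those tested) and 231 were lower (1.19%) at an adjusted p under 0.05. The median log2 fold change was 2.0 among the genes called higher, -1.94 among those called lower and -0.04 over all genes. With 1 unit per mouse and class (4 against 5 units), 163 genes were called higher (0.842%) and 21 lower (0.108%). Of these, 152 and 20 were among the genes called over tumors. With mouse as a random effect (voom) 44 genes were called higher and 27 lower, and with mouse as a block 0 were called. In 389 genes (2.01%) every high tumor lay above every low tumor, and in 274 (1.42%) every low tumor lay above every high tumor. Of the called genes, 243 of 388 and 125 of 231 were separated in this way.

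How many genes passed depended on single tumors. Without R-18 or without R-21, both low, 1 gene was called, and without R-16 it was 1216. Removal of R-1 left 27 calls, of R-7 153, of R-6 180, of R-12 81, of R-13 66 and of R-14 80. Without the 4 tumors of mouse P497 there were 88 calls, without the 2 tumors of N9255 17, and without the 3 tumors the study lists as squamous cell carcinoma (R-6, R-13 and R-14) 0, with 3010 genes at an unadjusted p under 0.05 by edgeR, the tool run there. All 619 called genes kept their direction without P497, without N9255, without the squamous tumors and over mouse units. They were picked for a difference in these same tumors, so their direction was nearly fixed and gives no support.

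The gene with the smallest p was *Plat*, tissue plasminogen activator (chromosome 8 from 22757747 to 22782844), a secreted protease that turns plasminogen into plasmin. It was at 11.3, 11.7, 11.2, 14.6 and 15.5 CPM in R-21, R-1, R-18, R-2 and R-7. In the high tumors it ran from 37.7 over a median of 78.2 to 114 CPM, so the classes did not overlap. The log2 fold change was 2.57 (SE 0.25, adjusted p = 0.00419 with edgeR's quasi-likelihood test), and over mouse units 2.72 (adjusted p = 0.00497). *Hbegf*, a membrane-anchored ligand of EGFR and ERBB4, was at 18.8, 9.7, 7.51, 10.8 and 35.7 CPM in the low tumors in the same order. The high tumors ran from 92.9 over 147 to 216 CPM, again without overlap (log2 fold change 3.23, SE 0.41, adjusted p = 0.0247). Of the 9 controls, 8 lay below the lowest high tumor.

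*Emp1*, a tetraspan membrane protein of epithelia (chromosome 6 from 135362545 to 135383173), was at 133, 111, 141, 161 and 269 CPM in the low tumors and between 455 and 1199 CPM in the high tumors, with a median of 792. The change was 2.29 on the log2 scale (SE 0.31, adjusted p = 0.0247). *Serpinb2*, an inhibitor of urokinase and tissue plasminogen activator (chromosome 1 from 107511423 to 107535478), was nearly unread in the low tumors, with 1 to 12 counts, against 158 to 8443 in the high tumors, through which it passed the filter on low counts. This is 2.66 to 175 CPM with a median of 29.2, against at most 0.206 CPM. With counts pooled over each class, the high tumors held 545 times as much (95% exact interval 377 to 820, counting error only). The highest values were in R-13, R-14 and R-6. Because of how *Serpinb2* passed the filter, its values are a description.

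The other 6 genes of the 10 with the smallest p in this direction also separated the classes. *S100a6*, a small calcium-binding protein of proliferating and mesenchymal cells, was at 35.1 to 63.2 CPM in low and 154 to 1095 CPM in high tumors (log2 fold change 3.35, SE 0.51). *Sulf1*, an extracellular sulfatase that edits heparan sulfate, reached 12 to 28.3 CPM and 47.1 to 159 CPM (2.42, SE 0.36). *Emilin2*, a glycoprotein of elastic fibers, gave 9.64 to 19.3 CPM and 32.4 to 72.4 CPM (1.71, SE 0.26). *Maf*, a leucine zipper transcription factor, gave 19.8 to 34.2 CPM and 53.4 to 179 CPM (2.0, SE 0.30). *Mical2*, which oxidizes nuclear actin and so frees the SRF coactivator MRTF, had the smallest change of the 10 (1.18, SE 0.18) but a gap between 68.6 CPM in the highest low tumor and 94.8 CPM in the lowest high tumor. *Ptprn*, a protein of secretory granules, ranged from 0.617 to 2.74 CPM and from 7.28 to 43.5 CPM (3.64, SE 0.50). All 6 had an adjusted p of 0.0247 (edgeR).

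The 10 genes with the smallest p that were lower in the high tumors included genes that were nearly unread in the high tumors and genes that changed by a few fold. *Zfp385b*, a zinc finger gene (chromosome 2 from 77410634 to 77819639), was at 61.9 (R-21), 30.3 (R-1), 91.3 (R-18), 26.7 (R-2) and 1.79 CPM (R-7), against 0.0414 to 0.723 CPM in the high tumors. The controls ran from 0.0268 to 2.29 CPM, and 2 of them lay above R-7. Pooled over each class the low tumors held 99.5 times as much (95% exact interval 85.6 to 116, counting error only). The predicted genes *Gm19554* and *Gm32742* followed the same course: *Gm19554* was at 31.3, 1.27, 22.6, 0.397 and 0.224 CPM in the low tumors in that order, with 0 to 3 counts in each high tumor. *Gm32742* was at 135, 9.02, 28.3, 4.51 and 0.275 CPM and at most 0.403 CPM in the high class, so it overlapped through R-7. Both passed the filter on low counts through the low tumors, where they were high, so their values are a description.

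*Bcl2l14*, a member of the BCL2 family, was at 142, 153, 124, 24.7 and 67.2 CPM in R-21, R-1, R-18, R-2 and R-7 and between 1.73 and 18.2 CPM in the high tumors (a change of -3.71 on the log2 scale, SE 0.60, adjusted p = 0.0247). *Mfsd4a*, a membrane transporter of the major facilitator family, was at 7.45 to 190 CPM in low and 0.396 to 3.54 CPM in high tumors (-5.55, SE 0.90). *Pdzd2*, a PDZ scaffold, was at 92.7 to 274 and 16.9 to 62.5 CPM (-2.25, SE 0.37). *Rnf43*, the ubiquitin ligase that removes Frizzled receptors and so restrains Wnt signals, was at 69.7, 49.4, 47.6, 47.2 and 50.4 CPM in the low tumors and between 10.2 and 27.2 CPM in the high tumors. The change was -1.37 on the log2 scale (SE 0.22, adjusted p = 0.0247), and over mouse units -1.25 (adjusted p = 0.0381). The remaining 3 genes changed as follows: *Ints6l*, a homolog of an Integrator subunit, by -1.49 (SE 0.25), *Phlpp1*, a phosphatase of AKT, by -1.03 (SE 0.18) and *Odr4* by -0.83 (SE 0.14) on the log2 scale. Over mouse units *Zfp385b*, *Bcl2l14*, *Rnf43* and *Pdzd2* had an adjusted p under 0.05 (edgeR). The other 6 had one of 0.0574 to 0.0719, among them *Gm19554* and *Gm32742*, for which it is a description only.

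**Figure D2:**
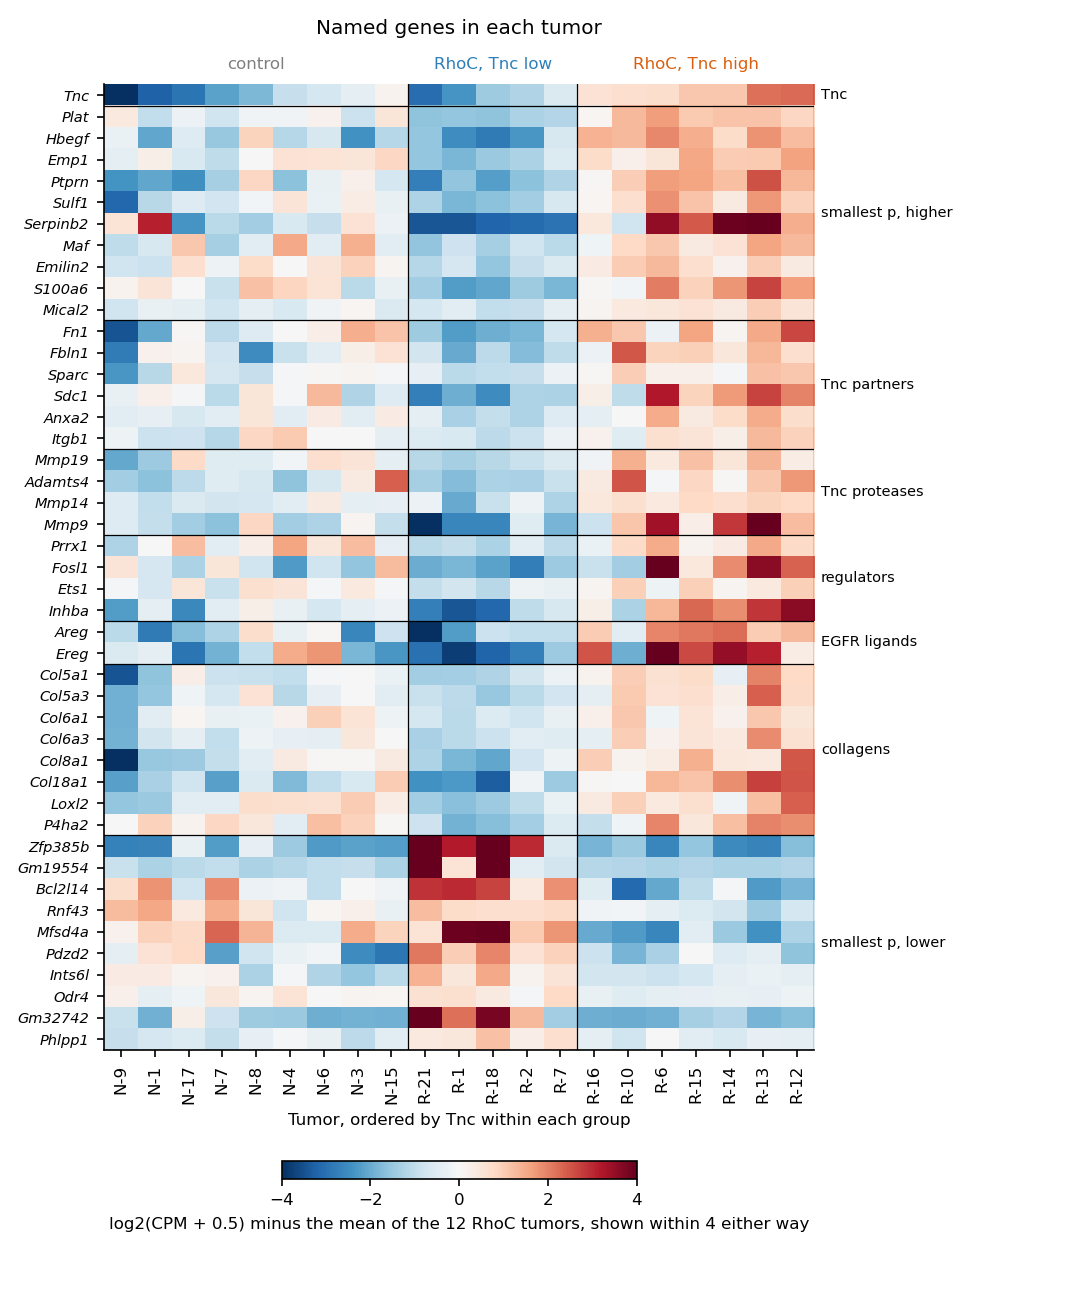
Each row is a gene and each column a tumor, ordered by *Tnc* within controls, low and high RhoC tumors; color is log2(CPM + 0.5) minus the mean of the 12 RhoC tumors, limited to 4 either way. *Plat*, *Hbegf* and *Emp1* are above the low tumors in all 7 high tumors, while *Zfp385b* is high in R-21, R-1, R-18 and R-2 and *Gm19554* in R-21 and R-18.

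Genes of the matrix and its receptors were described with lists by role; because the samples are bulk tumors, more cells of a kind and more RNA per cell cannot be told apart. Of 24 matricellular genes 3 were called, all higher (median log2 fold change 0.90; 2 over mouse units, 1 with mouse as a random effect). For this and the lists that follow, the share called over all genes was 2.0% higher and 1.19% lower, and each count is to be read against it. *Fn1*, the main tenascin-C ligand (chromosome 1 from 71585520 to 71653200), was at 569, 321, 392, 430 and 944 CPM in R-21, R-1, R-18, R-2 and R-7. The high tumors ran from 1297 over 4064 to 9756 CPM, without overlap (log2 fold change 2.96, SE 0.53, adjusted p = 0.0285; over mouse units 3.12, adjusted p = 0.0464, edgeR). *Fbln1*, a fibulin of basement membranes and elastic fibers, was at 12 to 29.5 CPM and 41.9 to 282 CPM (2.44, SE 0.46). *Sparc*, a collagen-binding protein, was at 369 to 651 CPM and 727 to 1740 CPM (1.28, SE 0.30). *Postn* was not called (0.67, adjusted p = 0.32) and its classes overlapped, since R-2, a low tumor, held 1011 CPM.

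Among 20 receptors and binding partners of tenascin-C 4 were called higher and 0 lower (median 1.02; 2 over mouse units, 1 with mouse as a random effect). *Sdc1*, a heparan sulfate proteoglycan of epithelial and plasma cells, was at 72.9, 127, 84.8, 209 and 206 CPM in R-21, R-1, R-18, R-2 and R-7 and ran from 240 over 1607 to 4487 CPM in the high tumors (3.73, SE 0.71, adjusted p = 0.033, edgeR). *Anxa2*, a membrane annexin that binds tenascin-C and also plasminogen and its activator, had a log2 fold change of 1.61 (SE 0.35), and *Itgb1*, the shared beta chain of many matrix integrins, of 1.19 (SE 0.30, classes overlapping). *Fn1* is the fourth.

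Of 7 tested proteases known to cut tenascin-C, 4 were called higher and 0 lower (2 over mouse units, 1 with mouse as a random effect), and the median log2 fold change of the 7 was 2.52. *Mmp19* was at 6.23 to 10.8 CPM in the low and 14.8 to 44.9 CPM in the high tumors (1.86, SE 0.31, adjusted p = 0.0249, edgeR). *Mmp14*, the membrane-bound metalloprotease of invading cells, was at 208, 59.8, 132, 213 and 104 CPM in R-21, R-1, R-18, R-2 and R-7 and between 320 and 456 CPM in the high tumors, above all 9 controls as well (1.44, SE 0.29). *Adamts4*, an aggrecanase, was at 15.8 to 28.9 CPM and 52.4 to 312 CPM (2.52, SE 0.47). *Mmp9*, a gelatinase that neutrophils and keratinocytes also make, had the largest fitted change (4.71, SE 1.14, adjusted p = 0.0475) and overlapped, with 18.3 CPM in R-16 and 23.6 CPM in the low tumor R-2; it was highest in R-13 (785), R-6 (349) and R-14 (237).

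Of 17 fibrillar and associated collagens 8 were called higher and 0 lower (median 1.24), and 5 of the 8 calls held over mouse units, whereas with mouse as a random effect (voom), and without R-1, R-12, R-18 or R-21, 0 were called. *Col5a3* was at 33.9, 30.4, 21.9, 29.8 and 37 CPM in the low tumors in the order used above and ran from 49.7 over 102 to 340 CPM in the high tumors (2.09, SE 0.43, adjusted p = 0.0353; over mouse units 1.94, adjusted p = 0.00819, edgeR). *Col5a1*, whose chain joins the same type V fibrils that set fibril width, changed by 1.79 (SE 0.39), *Col6a1*, of the microfibrils around cells, by 1.21 (SE 0.25) and *Col24a1* by 2.34 (SE 0.50). *Col5a2*, *Col6a2*, *Col6a3* and *Col8a1* were the other 4. *Col1a1*, the fibrillar collagen of most stroma, missed the threshold (1.61, adjusted p = 0.0567). Of 18 enzymes and chaperones that process collagen 4 were called higher, 0 lower (median 1.11; 2 over mouse units, 0 with mouse as a random effect): the lysyl oxidase *Loxl2* (2.14, SE 0.45), the prolyl hydroxylase subunit *P4ha2* (2.53, SE 0.55), and the propeptidases *Bmp1* (1.61, SE 0.33) and *Adamts2* (1.31, SE 0.31). Of 17 basement membrane genes 4 were called higher and 0 lower (median 0.75; 1 over mouse units, 0 with mouse as a random effect): *Col18a1*, the precursor of endostatin (3.20, SE 0.69), the laminin chain *Lamb1* (1.47, SE 0.34), perlecan (*Hspg2*, 1.24, SE 0.27) and nidogen (*Nid1*, 1.04, SE 0.23).

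Pathways that are known to drive *Tnc* were described in the same way. Of 17 transcription factors linked to *Tnc*, 3 were called higher and 0 lower (median 1.10), against 2 over mouse units and 0 with mouse as a random effect. *Prrx1*, a homeobox factor of mesenchyme that activates *Tnc*, was at 26.6, 29, 23.5, 42.5 and 27.2 CPM in R-21, R-1, R-18, R-2 and R-7 and between 47.2 and 165 CPM in the high tumors (1.75, SE 0.33, adjusted p = 0.033, edgeR). *Fosl1*, a subunit of AP-1, was at 0.132 to 1.07 CPM and 1.13 to 75.6 CPM (5.37, SE 1.15), and *Ets1* changed by 1.14 (SE 0.26). In the TGF-beta list 3 of 20 were called higher and 0 lower (median 0.40), with 0 over mouse units and 0 with mouse as a random effect, among them the activin chain *Inhba* (3.97, SE 0.88) and the signal transducer *Smad2* (0.62, SE 0.15). *Tgfb1* itself was not called (0.84, adjusted p = 0.146). Of 19 Notch genes 0 were called by edgeR (median 0.37), with 7 at an unadjusted p under 0.05 (24.5% of all genes) and 5 called by DESeq2 (15.1% of all genes). Of 20 SRF and contractile genes 1 was called higher, the calponin *Cnn2* (1.91, SE 0.47), against 0 over mouse units and 0 with mouse as a random effect, and the median was 0.79. *Acta2*, smooth muscle actin, was not called (1.24, adjusted p = 0.0732).

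*Rhoc*, whose count sums the endogenous gene and the transgene, was at 94.6, 83.9, 70.2, 22.5 and 67.8 CPM in R-21, R-1, R-18, R-2 and R-7 and ran from 64.4 over 100 to 146 CPM in the high tumors. The mean log2 CPM differed by 0.72 (6.65 ± 0.42 SD in 7 high and 5.93 ± 0.83 SD in 5 low tumors, exact two-sided permutation test p = 0.0492 over 792 labelings, smallest possible 0.00126). The difference was 0.36 without R-2 (exact p = 0.158), and 0.66 over 9 mouse units (exact p = 0.238). In the fit over all genes *Rhoc* had an adjusted p of 0.238. *Erbb2* overlapped widely, at 260 to 1896 CPM in the low and 309 to 1725 CPM in the high tumors (difference in log2 CPM 0.28, exact permutation p = 0.645). Total counts were 52293664 to 83471080 in the high and 47309780 to 85326903 in the low tumors (difference 0.01 on the log2 scale, exact permutation p = 0.966).

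Of 14 ErbB receptors and ligands 3 were called higher and 0 lower (median 0.30; 1 over mouse units, 1 with mouse as a random effect), all of them ligands: *Hbegf*, *Areg* and *Ereg*. *Areg*, amphiregulin, was at 1.1, 5.65, 15.3, 14.1 and 14 CPM in R-21, R-1, R-18, R-2 and R-7 and ran from 20.5 over 70.2 to 134 CPM in the high tumors (3.02, SE 0.64, adjusted p = 0.0368, edgeR). *Ereg*, epiregulin, was at 0.141 to 2.65 CPM and 1.77 to 139 CPM, overlapping through R-10 (6.04, SE 1.12). Over mouse units *Hbegf* was called (adjusted p = 0.0381), and *Areg* (0.0752) and *Ereg* (0.0624) were not. *Egfr* was not called (0.30, adjusted p = 0.587). Of 15 genes of ERK feedback, which follow receptor signals, 1 was called higher, *Fosl1*, against 1 over mouse units and 0 with mouse as a random effect, and the median was -0.07.

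Among 14 EMT factors, cadherins and vimentin, 3 were called higher and 0 lower (median 1.16; 2 over mouse units, 0 with mouse as a random effect): *Prrx1*, *Twist1* and *Cdh11*. *Twist1*, a basic helix-loop-helix factor of mesenchyme, was at 1.29, 1.03, 1.37, 2.02 and 2.1 CPM in the low tumors and ran from 3.46 over 9.16 to 32.8 CPM in the high tumors (3.13, SE 0.60, adjusted p = 0.0332, edgeR). *Cdh11*, a mesenchymal cadherin, changed by 1.26 (SE 0.26). *Vim* (0.67, adjusted p = 0.299), *Cdh1* (0.49, adjusted p = 0.16) and *Epcam* (-0.67, adjusted p = 0.17) were not called. Of 9 genes that the study itself named for EMT, chosen on these samples and so not independent, 1 was called higher, *Bmp1* (median 0.51; 1 over mouse units, 0 with mouse as a random effect). Of 17 Wnt targets and antagonists 0 were called higher and 1 lower, *Rnf43*, against 1 over mouse units and 1 with mouse as a random effect, and the median was 1.51. In the lists of cell cycle (20 genes, median 0.06), hypoxia response (14, median 1.05) and interferon response (16, median -0.73) edgeR called 0 genes. DESeq2 called 0, 5 and 0 of them, against 15.1% of all genes, and 0, 8 and 3 had an unadjusted p under 0.05, against 24.5%.

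**Figure D3:**
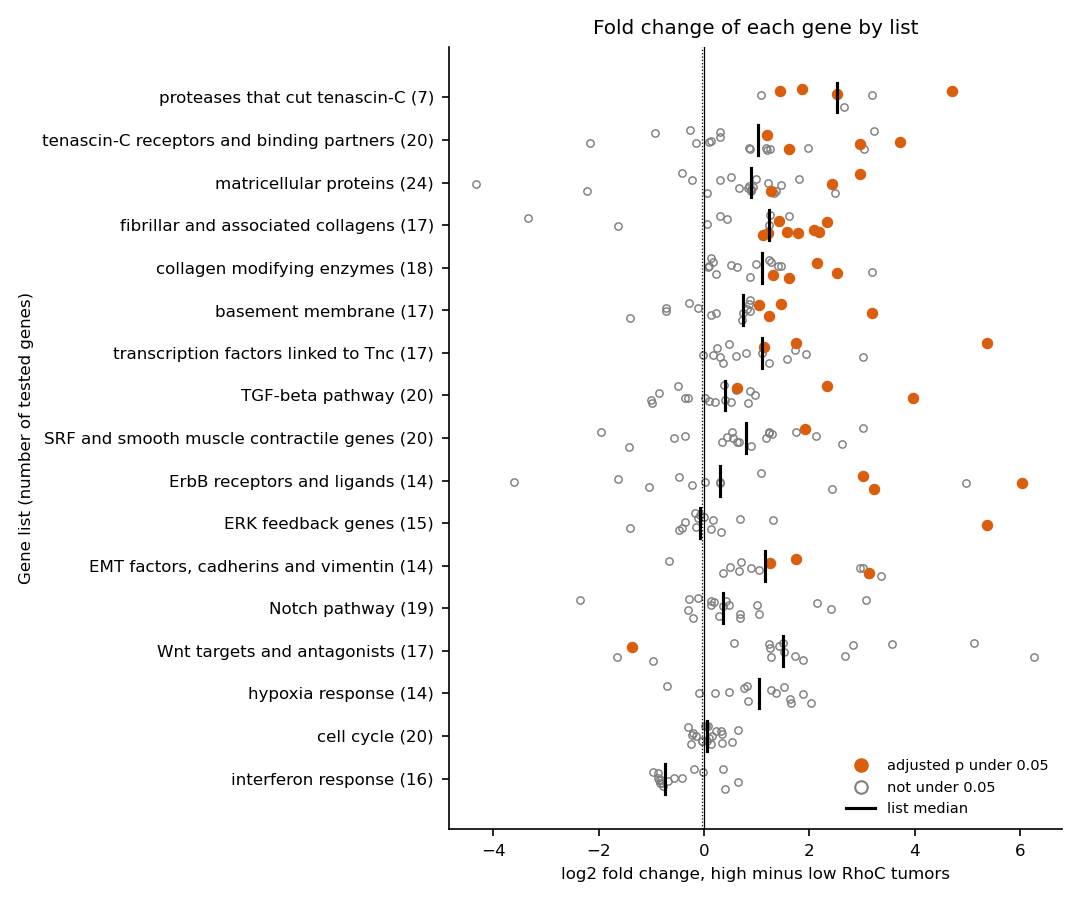
Each point is a tested gene of 1 of 17 lists of matrix, signaling and response genes, with its log2 fold change, high minus low RhoC tumors, on the x axis; filled points have an adjusted p under 0.05 (edgeR), black bars are list medians and the dotted line is the median of all genes, -0.04. The 8 called collagens and 4 called proteases lie to the right of 0, the only called gene left of 0 in these lists is *Rnf43*, and the cell cycle genes lie around 0.

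Cell type markers were summed in each tumor. The summed level of 24 squamous keratinocyte genes was 35.6, 54, 253, 129 and 477 CPM in R-21, R-1, R-18, R-2 and R-7. In the high tumors it was 44.1 CPM in R-10, 598 in R-16, 691 in R-15 and 2201 in R-12, then 4152 in R-14, 8372 in R-13 and 19825 in R-6, which are the 3 tumors the study's pathology lists as squamous cell carcinoma. Of 17 tested squamous genes 2 were called higher, the keratins *Krt6a* and *Krt6b* (median 3.75), with 1 over mouse units and 0 with mouse as a random effect. These keratins are closely related in sequence, so how reads were assigned between them is uncertain. *Krt6b* had 0 to 2 counts in each low tumor and *Krt6a* 0 to 92. Both passed the filter on low counts only through the high tumors, so neither call is support for the list. The involucrin gene *Ivl* was at 0 in all 5 low tumors. The 15 basal and myoepithelial genes summed to 2703 to 4324 CPM in the low tumors and from 2229 over 13121 to 32215 CPM in the high tumors (0 called by edgeR, 8 by DESeq2, 8 at an unadjusted p under 0.05, median 2.54). The 13 fibroblast genes summed to 1748 to 3408 CPM in the low and 2795 to 12135 CPM in the high tumors. They include *Col1a1* and other collagens, so the sum partly repeats the collagen list. Of the 13 genes, *Pdgfra* (1.91, SE 0.38, adjusted p = 0.0345) and *Pdgfrb* (0.93, SE 0.22) were called higher (median 1.06). Both calls were lost with mouse as a random effect and in the fit of 3 groups.

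Neutrophil genes summed to 8.31 to 30.2 CPM in the low tumors and from 26.2 over 59.1 to 762 CPM in the high tumors, highest in R-6 and overlapping through R-15 and R-10. All 7 tested had a positive log2 fold change (median 3.0) and an unadjusted p under 0.05, yet edgeR called 0 and DESeq2 6. The 10 milk protein genes summed to 1978 to 83770 CPM in the low and 140 to 15037 CPM in the high tumors (median -3.87), and *Lalba*, the alpha-lactalbumin of milk, was called lower (-6.25, SE 1.53, adjusted p = 0.0488) with classes that overlapped, a call that was lost over mouse units and with mouse as a random effect. Luminal genes summed to similar ranges, 2501 to 4064 CPM and 1050 to 5272 CPM, with R-10 lowest, and 0 of 15 were called by edgeR, 3 by DESeq2 and 4 at an unadjusted p under 0.05. The part that these cell types had in the gene differences was not tested. Without the 3 squamous tumors the list medians were 1.27 for collagens (1.24 with them), 1.18 for collagen enzymes, 1.26 for matricellular genes, 0.86 for tenascin-C partners and 1.86 for proteases. The squamous median was 1.68 and the basal median 0.97 without them.

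**Figure D4:**
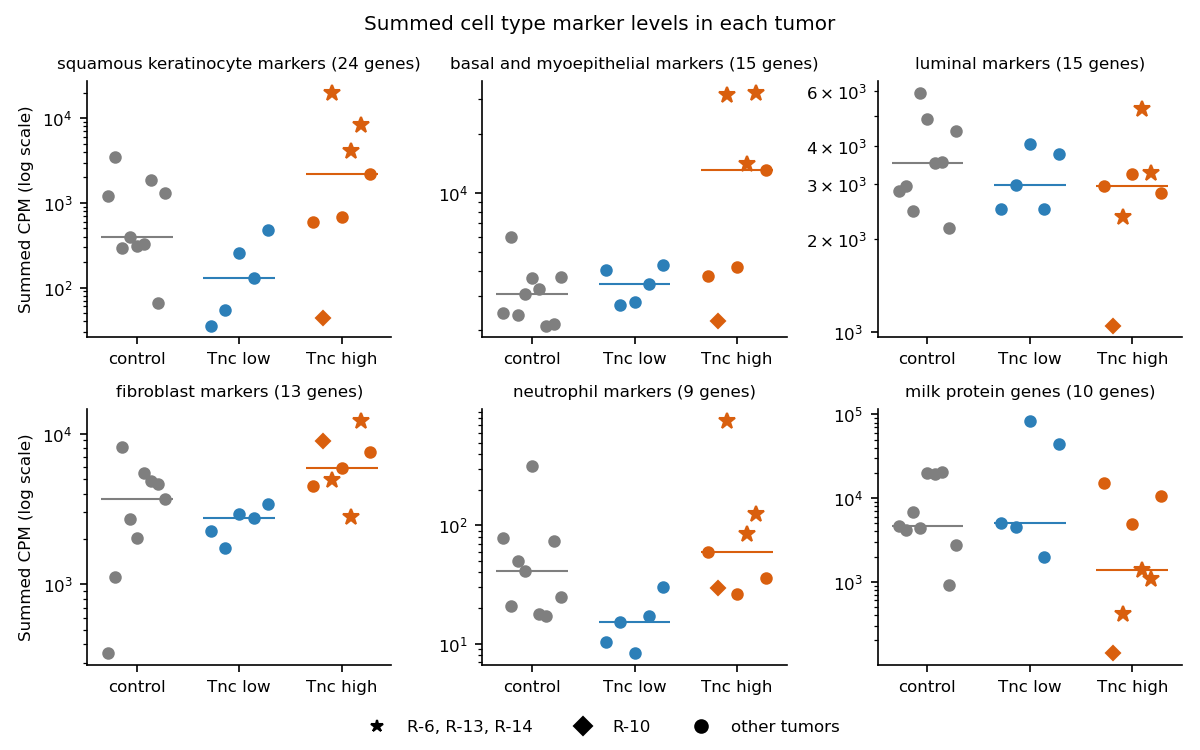
Each panel gives the summed CPM (log axis) of a marker list in every tumor of the control (gray), low (blue) and high (orange) groups, with bars at the medians; stars are the 3 squamous cell carcinomas and the diamond is R-10. Squamous sums reach 19825 CPM in R-6 and fall to 44.1 CPM in R-10, so the high class is not uniform in its epithelium, while fibroblast sums of 6 of the 7 high tumors lie above all low tumors. The fibroblast list includes *Col1a1* and other collagens.

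The 5 genes whose log2 CPM was most like that of *Tnc* over the 12 RhoC tumors were *Rbfox2*, a splicing factor (Pearson r = 0.968), *Tpm4*, a tropomyosin of stress fibers (0.963), *Ptgs2*, cyclooxygenase 2 (0.954), *Rnd3*, an atypical small GTPase (0.949), and *Emp1* (0.944). They were the highest of 11697 genes. The points are the 12 tumors that set the classes, 4 of them from mouse P497, so the values are descriptions. *Rbfox2* was at 68.3, 91.3, 99.8, 99 and 115 CPM in R-21, R-1, R-18, R-2 and R-7, given in their order of *Tnc*, and at 137 to 178 CPM in the high tumors. *Ptgs2* spanned far more, from 1.29 CPM in R-1 to 662 CPM in R-13. In the 9 controls the r with *Tnc* was 0.145 for *Rbfox2*, 0.108 for *Tpm4*, 0.47 for *Ptgs2*, 0.565 for *Rnd3* and 0.677 for *Emp1*. The genes most like *Tnc* in the controls were others, led by the thrombin receptor *F2r* (r = 0.985), then *Prim2*, *Azin1*, *Scpep1* and *Fopnl* (0.939 to 0.925). In the RhoC tumors the r was 0.19 for *F2r*, -0.196 for *Prim2*, 0.723 for *Azin1*, -0.45 for *Scpep1* and 0.342 for *Fopnl*.

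The controls were not used to form the classes, so they give a separate view of the same genes. Over the 9 controls, in which *Tnc* spanned 46.6 to 1114 CPM, edgeR's test of the slope on log2 *Tnc* called 0 of 20716 genes (0%), with 2101 at an unadjusted p under 0.05 and 538 called by DESeq2. Of the genes called higher in the high RhoC tumors 379 were tested there, and 266 (70.2%) had a positive slope, against 52% of the 19062 genes tested in both. Of those called lower 226 were tested and 161 (71.2%) had a negative slope, against 48% of all. Both an agreeing direction and an unadjusted p under 0.05 were found for 59 (15.6%, against 4.32% of all genes) and 39 (17.3%, against 5.42%). Genes are not independent replicates, and no test was made on these shares.

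Matrix genes were among those with the same direction in both. Of the 17 collagens 16 had a positive slope in the controls (median 0.37 per doubling of *Tnc*), and of the 18 collagen enzymes 17 did (median 0.24). Positive slopes were not particular to matrix: 19 of 20 cell cycle genes (0.21) and 8 of 8 B and plasma cell genes (0.36) had them. Between the RhoC classes the tested genes of those lists had medians of 0.06 and -1.11. Among markers of other cell types, 12 of 13 for fibroblasts (median 0.27), 10 of 10 for macrophages (0.42) and 10 of 10 for T cells (0.57) also had a positive slope, whereas 0 of 8 for adipocytes (-2.23), 0 of 12 for skeletal muscle (-1.16) and 5 of 15 for basal cells (-0.18) did. The adipocyte and muscle signs rested on N-17, which held 1549 and 4974 CPM of these markers, and without it 7 of 8 and 11 of 12 slopes were positive (0.90 and 1.71). The part of these cells in the result was not tested. N-9, the control with the lowest *Tnc*, also had the lowest summed level of the collagens (946 CPM, against 2130 to 9216 CPM in the other 8) and of the fibroblast markers (349 CPM, against 1115 to 8182 CPM). The 2 lists are not separate, since that of the fibroblasts includes *Col1a1* and other collagens. Without N-9 the slope was positive for 16 collagens (median 0.24), 14 collagen enzymes (0.21), 8 fibroblast markers (0.04), 10 macrophage markers (0.23) and 10 T cell markers (0.45), and for 253 (66.8%) of the 379 genes called higher, against 55.3% of all genes. Without N-15 it was 235 (62%), against 49.4%, the lowest share without any single control. *Fn1* had a slope of 0.81 (SE 0.20, unadjusted p = 0.00195, edgeR) and *Col8a1* of 0.83 (SE 0.15, p = 0.000235). The EGF receptor ligand *Hbegf* (-0.16, p = 0.515), *Plat* (0.03, p = 0.821) and *S100a6* (-0.04, p = 0.826) had slopes that did not pass even an unadjusted 0.05. Of 21 squamous genes in the control fit 3 had a positive slope (median -0.74), and 2 to 6 without single controls. The neutrophil genes had no stable sign: 2 of 9 slopes were positive (median -0.04), against 5 without N-4 (0.03), 6 without N-6 (0.06) and 5 without N-15 (0.13). The interferon genes rested on N-15, where they summed to 3205 CPM against at most 1173 CPM in the other controls: 16 of 16 slopes were positive with it (median 0.49) and 8 of 16 without it (median 0.00). Whether the slopes differ from those in RhoC tumors was not tested.

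**Figure D5:**
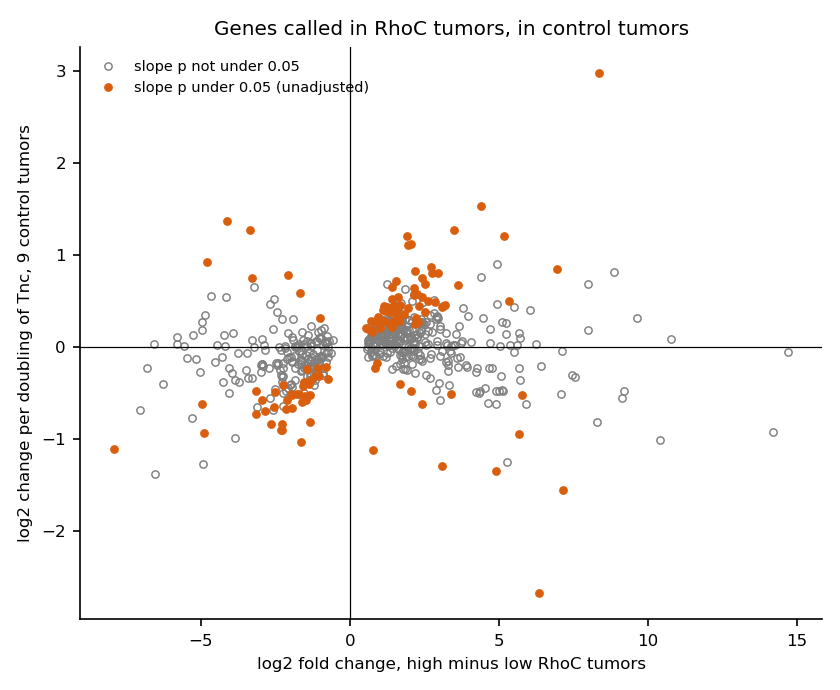
Each point is a gene called between high and low RhoC tumors; the x axis is its log2 fold change there and the y axis its log2 change per doubling of *Tnc* in the 9 controls. Filled points have an unadjusted slope p under 0.05; most points called higher lie above 0 (266 of 379) and most called lower lie below 0 (161 of 226).

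The levels of both classes were also set against the controls. The comparisons share the 9 controls, so the values are only set side by side. In 1 fit of 3 groups over all 21 tumors, 605 of 20918 genes were higher in the high class than in controls (2.89%) and 345 lower (1.65%), and 69 were higher in the low class than in controls (0.330%) and 27 lower (0.129%). With counts summed over each mouse, 162 were higher and 25 lower in the high class, and 59 higher and 25 lower in the low class. DESeq2 called 1313 higher and 1180 lower in the high class, and 531 higher and 677 lower in the low class. The genes called higher between the classes had a median log2 fold change of 1.0 in the high class and -0.94 in the low class, each against controls. For those called lower the medians were -0.98 and 0.87. *Emp1* gave 0.84 and -1.48, *Plat* 1.26 and -1.33, and *Fn1* 1.33 and -1.65. *Hbegf* gave 2.13 and -1.12, *Mmp14* 1.09 and -0.36, and *Col5a1* 1.46 and -0.35. *Bcl2l14* gave -1.86 and 1.83, *Rnf43* -1.21 and 0.14, and *Twist1* -0.06 and -3.22. Whether a class lay further from the controls than the other was not tested.

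The 2 tumors of mouse N9255 allow a comparison within 1 animal: R-6 held 1647 CPM of *Tnc* and R-7 675 CPM. The fit was repeated without both, and the direction of each gene from R-7 to R-6 was then read. Of 851 genes higher at an unadjusted p under 0.01 among the other 10 tumors, 715 (84.0%) were higher in R-6 than in R-7, against 46.9% of all tested genes. Of 624 lower genes 515 (82.5%) were lower in R-6, against 53.1% of all. The threshold of 0.01 was chosen after the calls were seen. Genes are not independent replicates of this 1 pair of tumors, and no test was made on these shares. The other 10 tumors still held R-13 and R-14, both squamous and high, so squamous histology also entered the choice of genes. R-6 is a squamous cell carcinoma and R-7 a complex adenocarcinoma in the study's list, so within this mouse *Tnc* level and histology cannot be told apart.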

How the data were processed

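RNA from 21 mammary tumors was sequenced with paired ends after ribosomal RNA depletion. Per the labels and the study's methods, the authors trimmed reads with Trim Galore 0.5.0, checked them with FastQC 0.11.5, aligned them to GRCm38.p6 with STAR 2.6.0c and made gene counts with HTSeq 0.6.1p2 from uniquely mapped reads, leaving out reads on more than 1 gene. The strand setting of the counting is not given in the sources used here, so overlapping and antisense genes are uncertain. The deposited count files held 49652 genes, of which 38730 had a count. Of these, 23203 were named from the table deposited by the authors, 15303 and 113 from a reference table by identifier with and without its version, and 111 were not named. FPKM values, which the authors deposited in that table, were used only for levels between genes. The authors' fold changes and p-values, also in their tables, were not used.

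CPM were computed with TMM factors, and log2 CPM with a prior count of 2. The classes, the lists and the tests were chosen with earlier results of these data known. Genes that passed edgeR's low-count filter were fitted with edgeR 4.0.16 (glmQLFit and glmQLFTest, R 4.3.3) over the 12 RhoC tumors, with Benjamini-Hochberg adjustment over all genes tested and a threshold of 0.05. High and low tumors were set against controls in 1 fit over 21 tumors, and the slope on log2 CPM of *Tnc* was fitted over the 9 controls. *Rhoc*, *Erbb2* and total counts were compared by exact two-sided permutation tests. Alternatives were DESeq2 1.42.0, voom with mouse as a random effect (limma 3.58.1), mouse as a block, counts summed per mouse, library size scaling, no filter and leaving out tumors. Scripts were tested on simulated data. Python 3.11.15 with pandas 2.3.3, NumPy 2.4.6, SciPy 1.17.1 and Matplotlib 3.10.9 was used for tables and plots.

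The text names in each direction the 10 genes of smallest p with a mean log2 CPM over 2, up to 4 called genes of each of 34 lists, and the 5 genes most like *Tnc* in each cohort. Other genes were named after their values were seen. Some genes and 1 list are not reported here. Total counts ran from 47309780 to 100741339, and intervals on pooled counts cover counting error only. The closest RhoC tumors, R-15 and R-16, had equal counts in 20 of 14020 genes with over 100 counts, so no library was taken as a duplicate. Their labels name the same gland of the same mouse, and whether they are pieces of a single lesion was not tested. P-values measure the spread between these tumors, and tumors of 1 mouse are not independent.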

Additional observations from a re-analysis of the deposited data

Results flagged for a closer look

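In 249 groups of 5, 7 or 9 tumors (82 genes and the total counts, in low, high and control tumors), 17 values stood further from the rest of their group than Dixon's 95% limit. Chance alone flags about 1 in 20 groups.

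Among the low tumors, R-2 was low in *Rhoc* (log2 CPM 4.49), R-21 was high in *Rnf43* (6.12), R-7 was high in *Prim2* (4.39), and R-18 was low in *Cnn2* (5.05) and *Pdgfrb* (5.81). Among the high tumors, R-6 was low in *Lalba* (-1.69) and R-10 was high in *Prim2* (5.0). Among the controls, N-8 had the most counts (100741339). Control N-9 was low in *Sulf1* (2.22), *Col5a1* (4.45), *Col6a1* (5.70), *Col8a1* (4.01) and *Cdh11* (-0.72), and it was also the control with the lowest *Tnc*, at 46.6 CPM. Control N-15, which had the highest *Tnc* of the controls (1114 CPM), was low in *Erbb2* (5.87) and high in *Adamts4* (8.15) and *Col18a1* (9.59). Control N-6 was high in *Mmp14* (8.30).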

How the results depend on the processing

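The count of genes differing between the RhoC classes (619) was 2878 with DESeq2, 1591 as a slope on *Tnc*, 932 in a fit of 3 groups, 238 with no filter, 184 with counts summed over each mouse, 71 with voom and mouse as a random effect (correlation 0.217), 88 without mouse P497 and 0 without the 3 squamous cell carcinomas. It was 17 without mouse N9255 and 0 with mouse as a replicate block (2244 at an unadjusted p under 0.05, edgeR), alternatives chosen after seeing the data. The tumor numbers pair no samples, so the block was mouse, and its class effect rests on R-6 against R-7. Under the block *Pdgfrb* changed sign, to -0.06. Leaving out 1 tumor gave 1 to 1216 genes. Library size scaling gave 529 and shifted the median of all genes to -0.10. Against controls, the high class (950 genes) gave 2493 with DESeq2, 512 with no filter and 187 with counts summed over each mouse, and the low class (96) gave 1208 with DESeq2. The control slope (0) gave 538 with DESeq2, 1 with no filter and 1 over the 7 controls with a *Gata4* loxP allele. The cause of these moves was not tested. The *Rhoc* difference (0.72) was 0.66 over mouse units and 0.56 without P497 (exact permutation p = 0.238 and 0.464), and 0.36 to 0.88 without single tumors. The *Erbb2* difference (0.28) was -0.04 over mouse units, -0.37 without P497, -0.02 without R-2 and -0.02 without R-18, within -0.02 to 0.69 over all single tumors. Of 1679 values of 73 named genes under alternatives 1 changed direction, given above. Many of these genes were named for their difference in the same tumors, so this count gives no support. Over the 21 lists with a call, 136 of 483 counts under alternatives were within 1.5 times and 245 were 0, and 16 of the 21 lists had 0 calls with mouse as a random effect.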

Other observations

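Some further genes, chosen after their values were seen, separated or nearly separated the classes. *Plau*, urokinase, was at 29.7, 17.3, 13.9, 36.5 and 31.9 CPM in R-21, R-1, R-18, R-2 and R-7 and ran from 60.4 over 167 to 1109 CPM in the high tumors (a change of 3.65 on the log2 scale, SE 0.76, adjusted p = 0.0363). Its receptor gene *Plaur* was at 5.97 to 14.4 CPM and 21.1 to 158 CPM (2.86, SE 0.55). With *Plat*, both activators of plasminogen and the urokinase receptor were among the called genes. They were put together after their values were seen and were not tested as a list. *Itga5*, the fibronectin receptor chain, was at 22.2 to 39 CPM and 45.5 to 304 CPM (2.27, SE 0.40; adjusted p over mouse units 0.00497). *Lgals1*, galectin-1, was at 12.1 to 28.3 CPM and 45.7 to 299 CPM (2.53, SE 0.46). *Igf1r*, a growth factor receptor, was at 74.4 to 163 CPM and 177 to 451 CPM (1.41, SE 0.24). The related cytokines *Il11* (3.03, SE 0.60) and *Lif* (1.40, SE 0.26) were also called higher.

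Markers of other cell types gave at most 1 call in each list, to be read against 2.0% called higher and 1.19% lower over all genes. Of 10 macrophage genes 1 was called higher, the scavenger receptor *Msr1* (1.41, adjusted p = 0.0462), with a median of 0.28, and of 7 pericyte genes *Pdgfrb* alone (median 0.13). Of 5 tested genes of B and plasma cells 1 was called, *Sdc1*, which epithelial cells also express, and the median was -1.11. With mouse as a random effect 0 genes of these 3 lists were called by voom. Of 11 endothelial, 10 T cell, 5 adipocyte, 5 skeletal muscle and 7 Schwann cell genes edgeR called 0. DESeq2 called 2, 0, 0, 0 and 0 of them, 3, 1, 1, 0 and 0 had an unadjusted p under 0.05, and the medians were 0.51, -1.2, 0.48, 0.44 and 0.06. R-10 differed from the other high tumors in its epithelial markers: it was the lowest of the 7 in summed squamous (44.1 CPM), basal (2229), luminal (1050) and milk protein genes (140), and the second highest in fibroblast genes (8984).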
